A study of Rattus norvegicus with 27 samples.

Results

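The transcripts of monoamine neurons were examined in mRNA from punches of the cerebellar interpositus nucleus (IP), a deep nucleus of the cerebellum, of Long-Evans rats. The genes were the 8 listed by symbol as Th, Dbh, Ddc, Slc6a2, Slc6a3, Slc6a4, Slc18a2 and Tph2, and all 8 were among the 17321 genes of the count table. Pups of the limited bedding (LB) groups were kept on scarce bedding from postnatal day 2 to 9, those of the no treatment (NT) groups had standard rearing, and tissue was collected on postnatal day 70. The 27 animals, each with 1 library, were 12 females (5 NT and 7 LB) and 15 males (7 NT and 8 LB), and the labels name no other treatment. Each sample pooled tissue from 3 neighbouring slices of 1 mm, cut out with a 2 mm punch, so tissue next to the nucleus may be included. Animals are called by their sample numbers, such as NT male 6112.

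Monoamine neurons make noradrenaline, dopamine or serotonin. Many of their cell bodies lie in the brainstem and midbrain, and the cerebellum receives their axons. Noradrenaline neurons lie in the locus coeruleus close to the cerebellum and serotonin neurons in the raphe nuclei. Dopamine neurons lie, among other places, in the substantia nigra and ventral tegmental area. Th encodes tyrosine hydroxylase, the rate-limiting enzyme of catecholamine synthesis. Ddc encodes the aromatic amino acid decarboxylase used in making dopamine and serotonin, and Dbh encodes dopamine beta-hydroxylase, which turns dopamine into noradrenaline. Tph2 encodes the neuronal tryptophan hydroxylase that starts serotonin synthesis. Slc6a2, Slc6a3 and Slc6a4 encode the plasma membrane transporters that take up noradrenaline, dopamine and serotonin, and Slc18a2 encodes the vesicular transporter (VMAT2) that loads monoamines, histamine included, into synaptic vesicles.

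The sequences before the start sites are shown for the members on which the results below turn: Th, with the clearest difference between groups, Slc18a2, with high values in 2 animals, Dbh, which defines noradrenaline neurons, and Tph2, which was counted in every animal. They are the 250 bases before the start of each gene in RefSeq on the GRCr8 build, 5′ to 3′ on the strand of the gene. RefSeq entries were found for 6 of the 8 members. Slc6a2 and Slc6a4 were not matched. Capitals mark TGACGTCA, the cyclic AMP response element (CRE, the same letters on both strands), and TATAAA on either strand.
Th: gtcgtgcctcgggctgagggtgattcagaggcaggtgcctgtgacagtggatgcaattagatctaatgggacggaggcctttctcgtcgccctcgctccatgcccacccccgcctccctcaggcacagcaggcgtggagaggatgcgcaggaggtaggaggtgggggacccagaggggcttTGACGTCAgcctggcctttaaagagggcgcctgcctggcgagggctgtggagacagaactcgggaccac
Slc18a2: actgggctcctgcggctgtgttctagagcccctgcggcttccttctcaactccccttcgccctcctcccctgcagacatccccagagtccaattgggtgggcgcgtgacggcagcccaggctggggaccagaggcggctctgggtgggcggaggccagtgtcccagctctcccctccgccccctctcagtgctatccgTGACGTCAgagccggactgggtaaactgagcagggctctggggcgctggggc
Dbh: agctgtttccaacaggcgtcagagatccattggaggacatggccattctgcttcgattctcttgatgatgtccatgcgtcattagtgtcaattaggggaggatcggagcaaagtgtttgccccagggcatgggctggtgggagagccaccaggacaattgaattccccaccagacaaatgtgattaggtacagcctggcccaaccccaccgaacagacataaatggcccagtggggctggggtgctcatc
Tph2: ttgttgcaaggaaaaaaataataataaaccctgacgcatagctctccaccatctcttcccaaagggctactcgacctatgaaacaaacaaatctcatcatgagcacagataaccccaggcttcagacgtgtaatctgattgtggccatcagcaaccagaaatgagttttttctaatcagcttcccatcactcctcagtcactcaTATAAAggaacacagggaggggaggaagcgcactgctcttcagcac
The Th sequence lies at chr1:207508219-207508468 on the minus strand and the Slc18a2 sequence at chr1:268399771-268400020 on the plus strand. Dbh lies at chr3:30886078-30886327 on the plus strand and Tph2 at chr7:52675640-52675889 on the minus strand. The CRE letters began 69 bases before the start of Th and 52 bases before that of Slc18a2, and 1.59% of all 33469 such sequences hold them. TATAAA began 46 bases before the start of Tph2, and 12.9% of all sequences hold it on one strand or the other. Dbh and Slc6a3 held neither. Of the 3 start sites of Ddc, 1 had TATAAA, on the opposite strand. These matches describe the letters only.

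On rn6, the build to which the counts refer, Th covers chr1:216073034-216080287 and Slc18a2 chr1:280423079-280457148. Dbh lies at chr3:5709236-5731895, Ddc at chr14:91905919-91996774 and Tph2 at chr7:58042281-58149061. The transporters lie at chr19:15391682-15431274 (Slc6a2), chr1:32323011-32363983 (Slc6a3) and chr10:63153656-63174820 (Slc6a4). Reads were counted over exons, whose summed length ran from 1763 bases for Th to 5198 bases for Ddc. None of the 8 shared exon bases with another gene of the table. The nearest neighbour was Pdzd8, 893 bases from Slc18a2.

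Total counts ran from 11836684 to 24169170 per animal (median 16034036). Counts were divided by library totals corrected with TMM factors and given as CPM, and 3 counts, taken as the least that counts as detected, corresponded to 0.1249 to 0.260 CPM. The Y-linked gene Eif2s3y matched the sex labels in all animals, with at least 516 counts in males and at most 3 in females. Of the deep nucleus markers (Slc17a6, Spp1, Nefh, Nefm, Sncg, Lhx9 and Kcnc1), all 7 were detected, and their summed level ran from 1052 CPM in an NT male to 4333 CPM in NT male 6112. Forebrain markers (Tbr1, Neurod6 and Rgs9) summed to a median of 82.9 CPM and to at least 51.2 CPM in every animal. They were over 1.5 times that median in 3 animals, NT males 3113 and 6111 and LB male 122. Tbr1 alone had 1822 counts in 3113, 2171 in 6111 and 1600 in 122, against a median of 41 over the 27 animals. The tissue that these markers came from was not tested. Animals whose numbers share all but the last digit were always of the same sex and treatment, and each group held 2 or 3 such sets.

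Most of the 8 genes were near the limit of detection. In CPM per kilobase of exon, the scale on which levels of different genes can be compared, Ddc stood highest, with a median of 2.62 over the 27 animals (range 1.71 to 5.09). Tph2 followed with a median of 0.336 (range 0.158 to 1.09) and Th with a median of 0.183 (range 0 to 2.73). Tph2 and Th overlapped over most of their ranges, whereas the lowest level of Ddc was above the highest of Tph2. The medians of Slc6a3 (0.0257), Slc6a4 (0.0234) and Slc18a2 (0.0207) did not differ beyond the spread between animals, and those of Dbh and Slc6a2 were 0.

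Detection differed between the members as widely as level. Ddc and Tph2 reached 3 counts in all 27 animals and Th in 21. Slc18a2 reached 3 counts in 5 animals, Dbh in 4, Slc6a3 in 3, and Slc6a2 and Slc6a4 in 2 each. All 8 members reached 3 counts in 1 animal, NT male 6112, and 6 did so in NT male 3111. The other 25 animals had 2 to 4 members at that level. Only Th, Ddc and Tph2 had enough counts for the test across genes. Th passed the filter for that test, with a minimum count of 10, through males alone, since every female had 6 counts or fewer. Its sex difference was thus tested in a gene kept through the sex in which it was high. At 1 library per animal, fewer cells or axons of a kind and less RNA in each cannot be told apart.

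**Figure D1:**
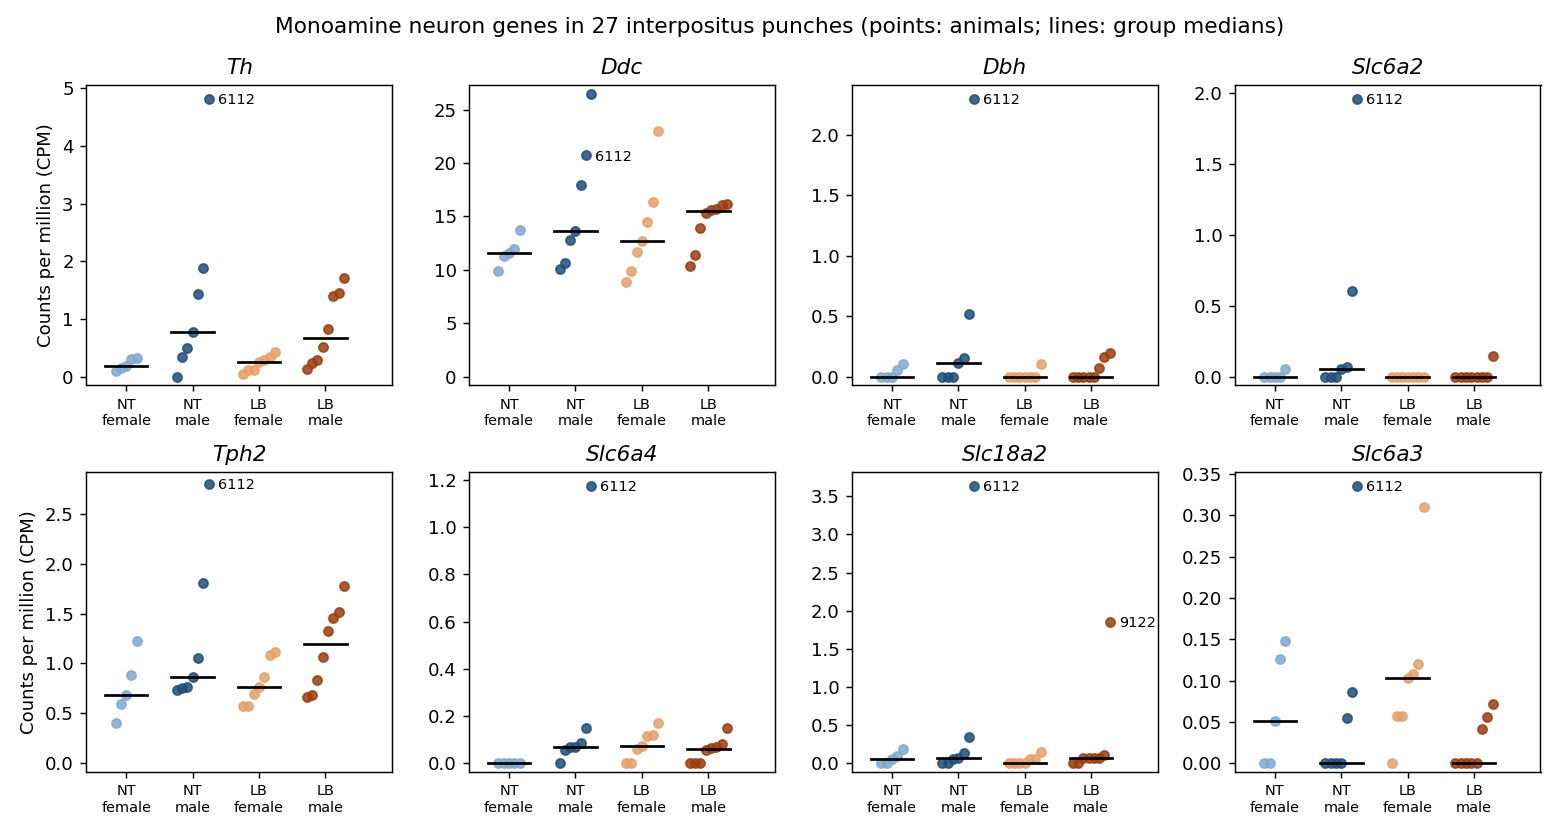
Level of each of the 8 genes in CPM (vertical axis, a separate linear scale for each gene) in the 4 groups, with 1 point for each of the 27 animals and a line at the group median. NT male 6112 is the highest animal in every panel but that of Ddc, and LB male 9122 stands apart in the panel of Slc18a2.

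Noradrenaline neuron transcripts were concentrated in NT male 6112. Dbh had 41 counts there, against 0 to 6 in the other 26 animals, of which 17 had 0. In NT females Dbh had 0, 0, 0, 1 and 2 counts. In NT males other than 6112 it ran from 0 to 6 (median 1), in LB females from 0 to 2 (median 0) and in LB males from 0 to 4 (median 0). The level in 6112 was 2.30 CPM (95% counting interval 1.65 to 3.12), 4.41 times that of NT male 3111, the next highest, at 0.520 CPM. Exact binomial intervals here cover counting error only.

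The noradrenaline transporter Slc6a2 had the same distribution. It had 35 counts in 6112 and 7 in 3111, and at most 2 in any other animal, with 21 of 27 animals at 0. All 7 LB females were at 0. The 1.96 CPM of 6112 (interval 1.37 to 2.73) were 3.23 times the 0.607 CPM of 3111. Thus the same pair of NT males ranked first and second for both genes. Per kilobase, Slc6a2 and Dbh stood close to each other in 6112, at 0.890 and 1.02 CPM, a ratio of 0.873.

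Th and the vesicular transporter were also highest in 6112. Th had 86 counts there (4.82 CPM, interval 3.85 to 5.95), against 0 to 35 in the others, and was 2.55 times the next highest animal. Slc18a2 had 65 counts (3.64 CPM, interval 2.81 to 4.64), 27 in LB male 9122 and at most 4 in the other 25. Per kilobase, Th was 2.68 times and Slc18a2 1.23 times the level of Dbh within 6112.

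The serotonin members gave a similar picture in 1 gene and a different one in the other. Slc6a4, the serotonin transporter, had 21 counts in 6112 (1.18 CPM, interval 0.728 to 1.80), 3 in LB female 5022 and at most 2 elsewhere. All 5 NT females were at 0. Tph2 was counted in every animal, from 8 to 35 counts outside 6112, which had 50 (2.80 CPM, interval 2.08 to 3.69, 1.55 times the next highest). Slc6a4 thus stood at 0 to 3 counts in 26 animals that all held at least 8 counts of Tph2.

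The dopamine transporter Slc6a3 had at most 6 counts in any animal. The highest were 6112 with 6, LB female 5021 with 5 and NT female 2011 with 3, and 12 animals had 0. Its level in 6112, 0.336 CPM (interval 0.123 to 0.731), overlapped that of 5021, 0.310 CPM. Per kilobase it was 0.0620 times that of Th in the same animal. All 4 groups overlapped in this gene, each holding animals at 0.

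Ddc did not follow the other members. The highest level was that of NT male 3111, with 305 counts (26.5 CPM), followed by LB female 5022 with 403 counts (23.02 CPM) and 6112 with 370 counts (20.7 CPM). In the other 24 animals it had 147 to 323 counts. Of the 8 members 7 were highest in 6112, all but Ddc. This animal was also the highest for 15.8% of the 14088 genes with 3 or more counts in some animal.

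**Figure D2:**
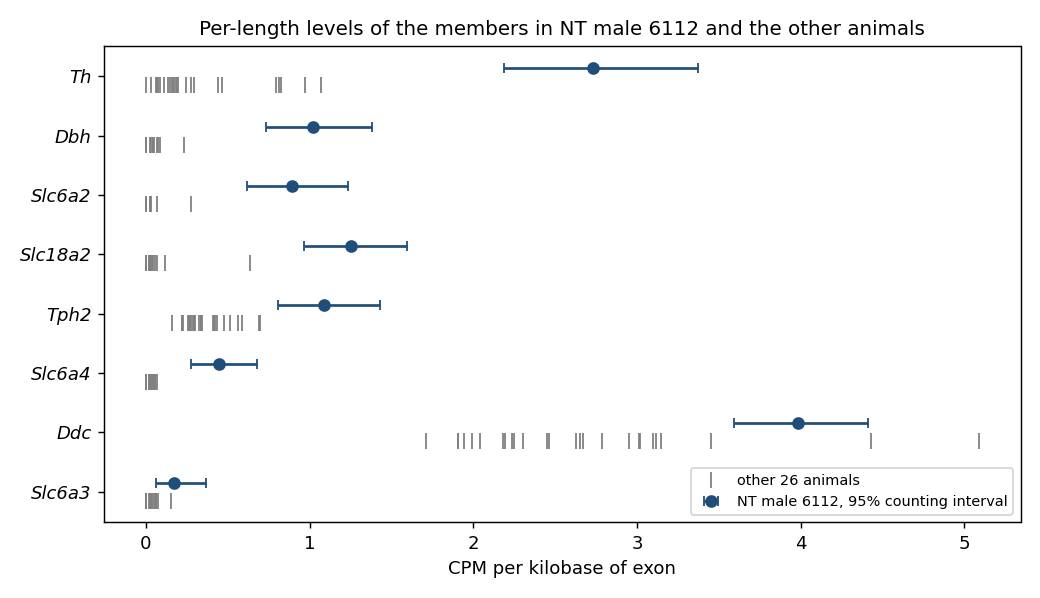
Level of each of the 8 genes in CPM per kilobase of exon (horizontal axis, linear) in NT male 6112 (circles, with exact 95% counting intervals) and in each of the other 26 animals (grey ticks). For Th, Dbh, Slc6a2, Slc18a2, Tph2 and Slc6a4 the interval of 6112 lies above the level of every other animal. That of Slc6a3 does not, and Ddc is exceeded by 2 animals.

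Of other genes that mark these neurons, some were high in the same animal and others were not. The serotonin neuron factor Lmx1b had 24 counts in 6112 and at most 2 elsewhere. Slc17a8, a vesicular glutamate transporter that serotonin neurons carry, had 92 counts against at most 11, and Gata3 had 42 against 36 in LB male 7122. Gata2, the other factor of that list, was not raised in 6112, with 123 counts, rank 6 of 27 and 1.10 times the mean of the other animals. Fev, the factor that defines serotonin neurons, was at 0 in all 27 animals. Whether reads of a gene at 0 everywhere could be counted with the annotation used was not tested. Phox2a, a factor of noradrenaline neurons, had 6 counts in 6112 and 5 in an LB female, Gal, which other neurons also express, ranked 10 of 27 in 6112, and Hand2 had at most 1 count. Of the dopamine neuron factors, Foxa2 was at 0 everywhere, Foxa1 had 5 counts in LB male 9122 and 0 elsewhere, Pitx3 had at most 3 counts, and Nr4a2, which other cerebellar cells also express, was second lowest in 6112. Tlx3 and En1 were not analysed here.

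NT male 6112 also differed in markers of other cells. Its cholinergic markers (Chat, Slc5a7, Slc18a3, Isl1 and Prph) summed to 216.8 CPM. The highest sum in the other animals was 17.7 CPM, that of NT male 3111. Chat had 338 counts in 6112 against at most 12, and the choline transporter Slc5a7 2338 against at most 31. Of the 7 deep nucleus markers, 6 were highest in 6112. Its summed forebrain markers, at 51.2 CPM, were the lowest of all animals. The part of these other cells in the levels of the members was not tested.

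The sex difference in Th was the clearest difference between groups. Th had 2, 3, 3, 5 and 6 counts in NT females (0.215 ± 0.0958 CPM, SD, n = 5). In NT males it had 0 to 86 counts, with a median of 9 (1.39 ± 1.64 CPM, n = 7). It had 1 to 6 counts with a median of 5 in LB females (0.232 ± 0.137 CPM, n = 7) and 2 to 35 with a median of 9.5 in LB males (0.822 ± 0.624 CPM, n = 8). Every female had 6 counts or fewer. Above all NT females lay 6 of 7 NT males, and the seventh, 3112, had 0 counts and lay below them all. Above all LB females lay 5 of 8 LB males, so the groups overlapped in both rearing conditions.

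Over all animals Th was higher in males by a log2 fold change of 2.26 (SE 0.515, edgeR's quasi-likelihood test, Benjamini-Hochberg adjusted p = 0.00335). Of the 3 members tested, 2 passed the threshold of 0.05 in this comparison, Th and Tph2, where 29.3% of all 12107 tested genes did. In NT rats Th was higher in males by 2.69 (SE 0.777, adjusted p = 0.0245, same test), the 1 member of 3 to pass, beside 15.2% of all tested genes. In LB rats the difference of 1.83 (SE 0.677, adjusted p = 0.173) did not pass the threshold. There 0 of 3 members passed, beside 0.248% of all genes, and 1, Th, had an unadjusted p under 0.05, as 17% of all genes had. DESeq2 and limma-voom called 0 members there too. The difference between NT and LB in the effect of sex was -0.86 (95% interval -2.99 to 1.27, adjusted p = 1.00, same test), so the effect was not shown to differ between rearing conditions.

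The call in NT rats was lost without some single animals. Without 6112 the difference in NT was 1.92 (adjusted p = 0.0728, same test), while that over all animals was 1.88 and passed. The NT difference also missed the threshold, with adjusted p from 0.0506 to 0.0643, when any 1 of NT females 1011, 2011, 2012 or 2013 was left out. With limma-voom neither call passed (adjusted p = 0.0523 over all animals and 0.210 in NT), nor with sample numbers sharing all but the last digit as a random block in limma (0.134 and 0.324).

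Th was also high where forebrain markers were. The 3 animals high in them had 34 (NT male 3113), 19 (NT male 6111) and 26 (LB male 122) counts of Th. Their forebrain markers summed to 226.3, 305.1 and 249.1 CPM, and every other animal was at or below 101.2 CPM. Among the other animals, LB male 7122 (35 counts), LB male 121 (25 counts), LB male 9122 (12 counts) and NT male 3111 (9 counts) had the most Th after 6112. Without the 3 animals Th remained higher in males, by 2.09 over all animals (adjusted p = 0.0102) and by 2.57 in NT (adjusted p = 0.0410, same test). Without the 3 animals and 6112, the difference was 1.25 over all animals (adjusted p = 0.0542) and 0.88 in NT (adjusted p = 0.453), and neither passed. Whether these markers came from forebrain tissue, and the part of such tissue in the level of Th, was not tested.

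Markers of several other cell types moved with sex as well. Over all animals 2050 of the 12107 tested genes were called higher in males and 1496 lower. All 5 tested meningeal markers of 6 were higher in males over all animals and 5 of 6 granule cell markers were lower. The summed meningeal level ran from 127.0 to 266.4 CPM in females and from 259.6 to 711.2 CPM in males. The summed granule cell level ran from 2944 to 6269 CPM in females and from 1790 to 5518 CPM in males. Of the cholinergic markers, 3 of 3 tested were higher in males (median log2 fold change 3.53, and 2.58 without 6112, where 3 of 3 passed again), and their summed level ran from 0.467 to 3.31 CPM in females and from 0.297 to 216.8 CPM in males. Of the deep nucleus markers 4 of 7 were higher in males, and 3 of 6 Purkinje cell markers were lower. Of the choroid plexus markers 1 of 5 tested was higher in males, and of the forebrain markers 1 of 3. The part of these cell types in the sex difference of Th was not tested.

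**Figure D3:**
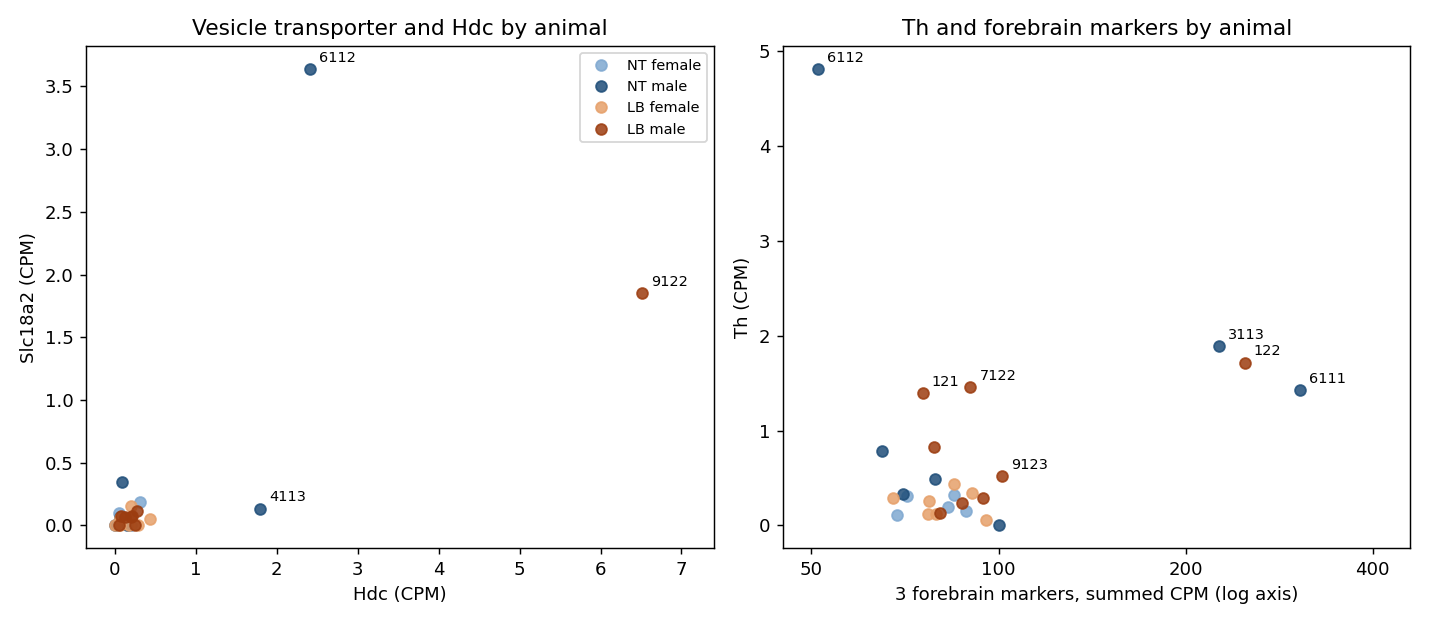
Left, Slc18a2 against Hdc in CPM for each of the 27 animals; right, Th in CPM against the summed CPM of 3 forebrain markers (log axis). On the left only 6112 and 9122 lie above 1 CPM of Slc18a2, and on the right the 3 animals high in forebrain markers lie above 1 CPM of Th, as do 6112, 7122 and 121.

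Tph2 differed less. Its counts were 8, 11, 14, 14 and 19 in NT females (0.760 ± 0.313 CPM, n = 5) and 10 to 50, median 11, in NT males (1.26 ± 0.779 CPM, n = 7). They were 10 to 18, median 12, in LB females (0.809 ± 0.225 CPM, n = 7) and 10 to 35, median 19, in LB males (1.17 ± 0.415 CPM, n = 8). Groups overlapped, with 2 of 7 NT males and 4 of 8 LB males above all females of their rearing condition. Over all animals Tph2 was higher in males by a log2 fold change of 0.63 (SE 0.238, adjusted p = 0.0454, edgeR's quasi-likelihood test). That call was at the edge of the threshold and was lost when any 1 of 15 animals was left out, with adjusted p = 0.0971 without 6112 and 0.0913 without NT female 2012. It was also lost without the 3 animals high in forebrain markers (0.58, adjusted p = 0.0928). The differences within NT (0.74, adjusted p = 0.147) and within LB (0.53, adjusted p = 0.393) did not pass.

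Ddc was measured most precisely and differed least. It had 185 to 230 counts in NT females (11.7 ± 1.39 CPM, n = 5) and 147 to 370 in NT males (16.03 ± 5.99 CPM, n = 7). It had 160 to 403 in LB females (13.9 ± 4.78 CPM, n = 7) and 157 to 274 in LB males (14.3 ± 2.26 CPM, n = 8). The difference between males and females was 0.25 over all animals (95% interval -0.06 to 0.56, adjusted p = 0.206, same test), 0.45 in NT (adjusted p = 0.160) and 0.05 in LB (adjusted p = 0.922). None passed.

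The 5 members with too few counts were fitted only when every gene with 1 count over all animals was kept, which gave 15089 genes. In that fit Slc6a4 (5.01, adjusted p = 0.0201, edgeR's quasi-likelihood test) and Slc6a2 (4.40, adjusted p = 0.0425) passed in NT beside Th, so that 3 of 8 members were higher in NT males, where 11.9% of all genes were called. Dbh (3.47, adjusted p = 0.0531) and Slc18a2 (3.04, adjusted p = 0.122) did not pass. Without 6112 the calls were lost, with adjusted p = 0.0588 for Slc6a4, 0.171 for Slc6a2 and 0.0797 for Th. Fitted fold changes of such genes depend on the prior count: Slc6a4 was at 0 in every NT female and had 6 counts in all in the NT males other than 6112. Over all animals Slc18a2 (adjusted p = 0.0299), Slc6a4 (adjusted p = 0.0464) and Th passed, where 24.2% of all genes were called, and without 6112 Th alone passed. Slc6a3 was the 1 member with lower values in males over all animals (-0.91, adjusted p = 0.289), and without 6112 the value was -1.60 (unadjusted p = 0.0149, adjusted p = 0.0589, same test).

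Limited bedding was not followed by a difference that passed the threshold in any tested member. Th differed between LB and NT by -0.33 over all animals, -0.76 in males (95% interval -1.95 to 0.44, adjusted p = 0.612, edgeR's quasi-likelihood test) and 0.10 in females (interval -1.63 to 1.83). Without 6112 the difference of Th in males was 0.012, so its negative value in males rested on that animal. Tph2 differed by -0.12 in males (interval -0.74 to 0.51) and 0.10 in females (interval -0.64 to 0.84), and Ddc by -0.16 (interval -0.57 to 0.24) and 0.24 (interval -0.22 to 0.70). Of the 3 members, 0 passed over all animals, in males, in females or for the interaction, and 0 had an unadjusted p under 0.05 in any of these. DESeq2 and limma-voom also called 0 members. The share of all tested genes called was 0.00826% over all animals, 0% in males, 0.00826% in females and 0% for the interaction, and the share at an unadjusted p under 0.05 was 14.9%, 10%, 7.94% and 4.71%. The intervals of Th still include more than 1 log2 unit either way in females.

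With every gene with 1 count kept, 0 of 8 members passed in any of these 4 comparisons either, beside 0.00663%, 0%, 0.00663% and 0% of all genes, but several had an unadjusted p under 0.05. In males Slc6a2 (-4.09, unadjusted p = 0.00167, adjusted p = 0.401, edgeR's quasi-likelihood test), Dbh (-2.78, unadjusted p = 0.00620, adjusted p = 0.414) and Slc6a4 (-2.02, unadjusted p = 0.0196, adjusted p = 0.485) had lower values in LB. Without 6112 the values were -2.36 for Slc6a2 (unadjusted p = 0.0401, adjusted p = 0.904), -0.97 for Dbh (unadjusted p = 0.299) and -0.38 for Slc6a4 (unadjusted p = 0.615, same test). In females Slc6a4, at 0 in all NT females and at 0 to 3 counts in LB females, had higher values in LB (3.46, unadjusted p = 0.0209, adjusted p = 0.676, same test), and its interaction was -5.48 (unadjusted p = 0.00264, adjusted p = 0.931). The share of all genes at an unadjusted p under 0.05 in this fit was 12.5% over all animals, 9.47% in males, 6.84% in females and 5.25% for the interaction.

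**Figure D4:**
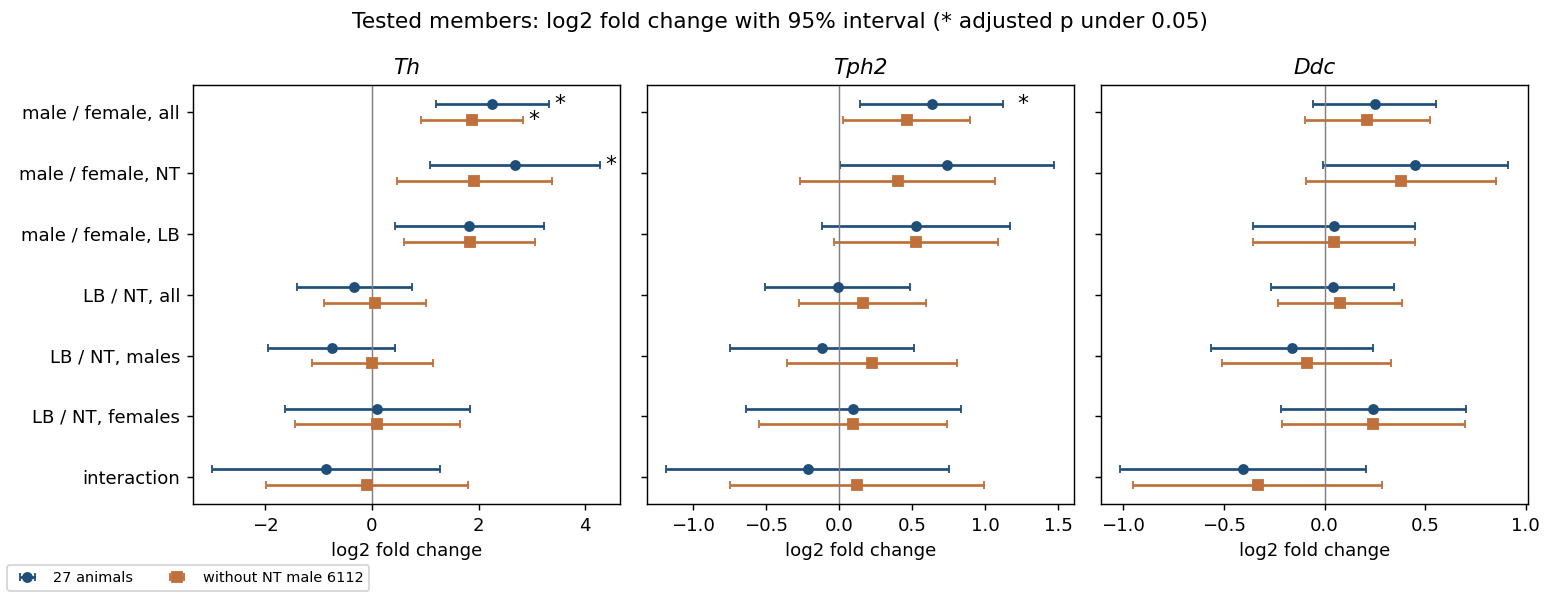
Log2 fold change (horizontal axis, a separate scale for each gene) of Th, Tph2 and Ddc in 7 comparisons, fitted over 27 animals (circles) and without NT male 6112 (squares), with 95% intervals and a star where the adjusted p was under 0.05. Stars are found only in comparisons of males with females, and 1 of the 3 remains, that of Th over all animals, without 6112.

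The vesicular transporter had a second high animal. Slc18a2 had 27 counts in LB male 9122 (1.85 CPM, interval 1.22 to 2.70) and 0 to 2 in the other 7 LB males. The other members were not among the highest there. Dbh and Slc6a4 had 1 count each, Slc6a2 and Slc6a3 0 and Tph2 10. Th had 12 counts (0.823 CPM, rank 7 of 27), above every female, and Ddc had 228 counts (15.6 CPM, rank 9). Hdc, which encodes histidine decarboxylase, the enzyme that makes histamine, had 95 counts in 9122 (6.52 CPM), 43 in 6112 and 27 in NT male 4113, and at most 8 in the other 24. Thus the animals highest in Slc18a2 were the first and second in Hdc, whereas 4113 had 2 counts of Slc18a2. None of the 6 mast cell markers, cells that also hold Hdc and Slc18a2, reached 3 counts in any animal. Pmch and Nkx2-1, like Hdc, were named after their values were seen. The neuropeptide precursor Pmch had 351 counts in 9122 and at most 18 elsewhere, and the transcription factor Nkx2-1 had 52 against at most 2. These 2 genes are known from neurons of the hypothalamus. LB male 9122 was the highest animal for 2.26% of the genes with 3 or more counts.

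The genes that receive, break down or assist monoamines were examined as lists. Of 46 such genes, 34 were tested. Over all animals 16 of the 34 were higher in males and 0 lower, beside 29.3% of all genes called in either direction and 16.9% called higher. The median log2 fold change was 0.30 over the 34, against 0.02 over all genes. Without NT male 6112 there were 13 higher and 1 lower, 41.2% of the 34, beside 28.9% of all genes. Without the 3 animals high in forebrain markers there were 11 higher and 0 lower, 32.4%, beside 23.8% of all genes. Without those 3 animals and 6112 there were 7 higher and 1 lower, 23.5%, beside 22.4% of all genes. In NT, 10 of 34 were higher in males and 0 lower, beside 10.1% of all genes called higher, and in LB 0 were called, beside 0.248% of all genes, with 11 at an unadjusted p under 0.05, beside 17% of all genes.

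Serotonin receptors accounted for 5 of the 16, out of 8 tested. Htr2c, a receptor of wide distribution that choroid plexus also carries, had 21 to 66 counts in NT females and 39 to 3360 in NT males, with the maximum in 6112. The next highest was NT male 4113, with 867 counts, which also had 95166 counts of the choroid plexus gene Ttr. NT male 6112 had 1752 counts of Ttr, and LB female 5022, second in Ttr with 4224, had 41 of Htr2c. The part of choroid plexus in the level of Htr2c was not tested. Htr2c was higher in males by 3.11 over all animals (SE 0.578, adjusted p = 0.00133, edgeR's quasi-likelihood test) and passed there without 6112 (2.64, adjusted p = 0.00192) and without the 3 animals high in forebrain markers (2.84, adjusted p = 0.00246). Htr1a, an inhibitory receptor, had 0 to 3 counts in NT females and 1 to 68 in NT males (3.06, adjusted p = 0.00393), and passed without the 3 animals (2.36, adjusted p = 0.0197) but not without them and 6112 (1.46, adjusted p = 0.137). The ion channel subunit Htr3a did the same, with 2.30 over all animals (adjusted p = 0.00308), 1.88 without the 3 animals (adjusted p = 0.0130) and 1.21 without them and 6112 (adjusted p = 0.0594). Htr5b passed over all animals (2.98, adjusted p = 0.00593) and not without the 3 animals (1.17, adjusted p = 0.0919). Htr3b and Htr7 were at 0 in all animals, and whether their reads could be counted was not tested.

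Outside the receptors, the low-affinity transporter Slc22a3 was higher in males by 3.19 over all animals (adjusted p = 0.00581, edgeR's quasi-likelihood test), but by 1.60 without the 3 animals high in forebrain markers (adjusted p = 0.118). Genes of the tetrahydrobiopterin cofactor that Th and Tph2 require were called in NT, where 10.1% of all tested genes were called higher in males. Pts was higher in NT males by 0.82 (adjusted p = 0.0135), Pcbd1 by 1.13 (adjusted p = 0.0333) and Qdpr by 0.86 (adjusted p = 0.0344). The 3 were among 7 tested genes of that list, and without 6112 Pts passed (0.79, adjusted p = 0.0300, same test) whereas Pcbd1 (0.66, adjusted p = 0.0990) and Qdpr (0.74, adjusted p = 0.0689) did not. Gch1, the first enzyme of the same pathway, had 5 to 26 counts in NT females and 5 to 25 in NT males. Of 8 adrenergic receptors 3 were higher in males over all animals (Adra2a, Adra1d and Adrb1), of 2 dopamine receptors 1 (Drd2), and of 5 breakdown genes 2 (Maob and Aldh1a1). In that comparison 16.9% of all tested genes were called higher in males. In CPM, Drd2, Adra2a, Maob and Aldh1a1 were highest in 6112, whereas Adra1d and Adrb1 were not.

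The patterns of Th, Ddc and Tph2 over the 27 animals were compared with those of all tested genes. Those most like Th by Spearman's rho of log2(CPM + 0.5) were Actn2 (rho 0.89, Pearson r 0.82), Kcna5 (0.88, 0.87), Slit1 (0.87, 0.85), RGD1311447 (0.87, 0.75) and Dleu7 (0.86, 0.89). Without 3113 and 6112, the animals farthest from the median of Th, r ran from 0.74 to 0.86. For Tph2 they were Vegfc (0.79, 0.78), Magee2 (0.77, 0.83), Cpe (0.75, 0.61), Rwdd2a (0.74, 0.76) and Lias (0.74, 0.80). For Ddc they were Lgals9 (0.79, 0.80), RGD1310587 (0.79, 0.81), Rrp1 (0.77, 0.67), Arhgef15 (0.77, 0.74) and Lmo2 (0.76, 0.69). The 3 members shared no gene among these 15. Genes in 1 library share its depth and its mixture of cells, and the coefficients describe these animals only.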

How the data were processed

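Messenger RNA was measured in 27 rats. The authors deposited raw counts per gene, made with STAR 2.5.2b and featureCounts (Subread 1.5.1) on rn6 per the labels. The annotation release and the treatment of strand and of reads mapping to several places are not given in the sources used here. The deposited table also holds exon lengths. Groups came from the sample labels. In the study, samples of low RNA integrity had been left out.

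The members, lists and named genes were chosen with earlier results of these data known. All members are described, with at most 5 pathway genes per comparison by smallest adjusted p, and the 5 genes most like each member with 3 or more counts in at least 14 animals. Pmch and Nkx2-1 lie outside that rule, as do Hdc, Tbr1, Chat, Slc5a7, Ttr, Lmx1b, Slc17a8, Phox2a, Foxa1 and Gata3. All of these were named with their counts after the values were seen.

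Counts were filtered with filterByExpr (minimum count 10, minimum total 15), scaled by TMM, and fitted in 1 quasi-likelihood model with 4 groups in edgeR 4.0.16 (R 4.3.3), with a prior count of 0.125 and Benjamini-Hochberg adjustment over 12107 genes. P-values set the difference between groups against the spread between animals, which were treated as independent except in the fit with a random block. The SE was the log2 fold change divided by the square root of F. Among 80 pairs of animals from the same group, 0 had identical counts and the chi-square of their counts was at least 8.45 per degree of freedom. The model was also run on simulated counts in which no outlying animal was set. That run does not cover animals such as 6112, and no result here rests on it. Alternatives were DESeq2 1.42.0, limma-voom 3.58.1, other scalings, filters and detection limits, a block for sample numbers sharing all but the last digit, and leaving out animals. Leaving out 6112 with 9122, the 3 animals whose summed forebrain markers were over 1.5 times the median of all animals (with or without 6112), or 6112 without a filter was chosen after seeing the data. Genes withheld from the marker lists are not reported here.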

Additional observations from a re-analysis of the deposited data

Results flagged for a closer look

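Within groups, the highest and the lowest animal were each set against the animal next to it. The gap between them was divided by the range of the group (Dixon's ratio). This was done for the 24 combinations of member and group with 3 or more counts in an animal. In 9 of 24 the ratio was above the 95% critical value, a value that about 1 in 20 groups of normally distributed values would pass. All 9 were highest animals. That rate does not apply here, since counts near 0 are not so distributed and in 5 of the 9 the animal itself was the only one with 3 counts. NT male 6112 was the animal in 6 of the 9: Th (0.608), Dbh (0.773), Slc6a2 (0.690), Slc6a3 (0.742), Slc6a4 (0.872) and Slc18a2 (0.905). LB male 9122 was the animal for Slc18a2 (0.940).

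LB female 5021 stood apart for Slc6a3 (0.611), with 5 counts, and LB female 8021 for Slc18a2 (0.613), with 3 counts. Those 2 values are at or near the limit of detection.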

How the results depend on the processing

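Of the 2 members called between males and females over all animals, 0 were called with limma-voom, with the random block, or with a filter of 10 counts in every animal, which left Th and Tph2 out. With library size alone as the scaling, 1 was called, as without 6112 and 9122, without the 3 animals high in forebrain markers, and with no filter and without 6112; without those 3 and 6112 it was 0. Leaving out 1 animal at a time gave 1 to 2, and Th was called in all 27 of these fits. In NT, where 1 member was called, no filter gave 3, and 0 were called with limma-voom, the random block, the filter of 10 counts, only the groups compared (Th adjusted p = 0.0595), without 6112 and 9122, with no filter and without 6112, or without the 3 animals and 6112. Leaving out 1 animal gave 0 to 1. The cause was not tested.

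With 1 count as the limit of detection, Dbh was detected in 10 animals, Slc6a2 in 6, Slc6a3 in 15, Slc6a4 in 16 and Slc18a2 in 17. With 10 counts, Th was detected in 7 animals, Slc18a2 in 2, Dbh, Slc6a2 and Slc6a4 in 1 each, and Slc6a3 in 0.

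Several differences that passed no test changed sign. The difference between LB and NT over all animals became 0.062 (limma-voom) and 0.047 (random block) for Tph2 and -0.011 (library size) for Ddc, and that of Th in females became -0.0081 with limma-voom. Without 6112 and 9122, the LB difference over all animals was 0.20 for Tph2 and 0.059 for Th, that in males 0.31 and 0.015, and the interaction of Tph2 0.21. With no filter and without 6112, Tph2 was 0.14 over all animals, 0.19 in males and 0.096 for the interaction, and Th 0.034 over all animals. Without the 3 animals Tph2 was 0.012 over all animals, and without them and 6112 it was 0.31 and Th 0.47. In males Tph2 was then 0.51 and Th 0.83, and the interactions were 0.41 and 0.74. Leaving out 1 animal at a time gave -0.45 to 0.13 for the interaction of Tph2 and -0.040 to 0.22 for the sex difference of Ddc in LB. The LB difference then ran in females from -0.093 to 0.28 for Th and -0.062 to 0.33 for Tph2, in males from -0.25 to 0.00079 for Ddc, -0.98 to 0.012 for Th and -0.22 to 0.22 for Tph2, and over all animals from -0.044 to 0.12 for Ddc, -0.44 to 0.057 for Th and -0.089 to 0.16 for Tph2.

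No paired analysis was possible because the sample numbers are unique to each animal and pair none across groups. Depth limits Dbh, Slc6a2, Slc6a3, Slc6a4 and Slc18a2 most, since most animals had under 3 counts of each.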
